A study of Mus musculus with 3 samples.

Results

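The 42 genes described here encode the proteins that license replication origins, unwind and copy DNA and supply its nucleotides. They were chosen by gene symbol, and each symbol matched exactly 1 of the 37646 genes listed. RNA came from 3 splenic lymphomas of pBIC mice, a C57BL/6 model whose label is an ABC-type diffuse large B cell lymphoma. All 3 libraries have 1 genotype, p53F/F, Blimp1F/F, IKK2castopF/stopF, Cg1Cre/+, which joins floxed p53 and Blimp1 alleles with an IKK2 transgene behind a floxed stop. The Cre is driven from the Cg1 locus, which B cells transcribe around the germinal centre stage. Sorting for B220 and GFP, after lysis of erythrocytes, took live cells from spleens of moribund mice. The labels give no age or treatment and do not state that the tumours came from unrelated animals, so the spread between them may be partly technical. The normal germinal centre B cells that the design names were not analysed here, and nothing below is a comparison with normal cells.

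Replication is prepared in G1 phase, when the origin recognition complex (ORC), CDC6 and CDT1 load the ring-shaped MCM helicase onto DNA. At the start of S phase CDC45 and the GINS complex activate that helicase. DNA polymerase alpha and primase then start each strand, the clamp PCNA is placed by its loader RFC, and polymerases delta and epsilon extend the strands. Most of these genes are classical targets of E2F transcription factors, and germinal centre B cells and aggressive lymphomas are known for a high demand on this machinery.

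Levels between tumours are given as CPM, counts relative to library size after TMM scaling, and levels between genes as TPM, which also divides by the joined exon length of each gene. Libraries held 15022902 to 15141009 counts. A gene without a count could have been present at up to 3 counts, or 0.194 to 0.208 CPM, and such limits and the intervals given below take account of counting error alone. The 11 pan-B cell markers were all at 1 CPM or more in each library and had a median of 407 CPM, so the sorted cells had the B lineage transcripts of their label. Of the 11, 10 reached 10 CPM in each library, and the exception was Ebf1 with 13.9, 4.85 and 2.28 CPM in tumours 1, 2 and 3. Of 9 T cell markers 8 also reached 1 CPM (median 5.54 CPM), of 8 macrophage markers 3, of 7 erythroid markers 3 and of 7 neutrophil markers 0.

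RNA of all 42 replication genes was detected in all 3 tumours. Of them 41 reached 10 CPM in every tumour, and the exception was Fen1. That level was reached by 20.7% of all 37646 genes listed, and by 7774 of the 11478 genes tested for variability. The median of the 42 genes was 60.2 TPM, against 22.4 TPM over the genes tested. Their summed share of counts was 0.443%, 0.606% and 0.451% in tumours 1, 2 and 3. The exact 95% binomial intervals (Clopper-Pearson) ran from 0.439 to 0.446%, 0.602 to 0.610% and 0.448 to 0.455%. Tumour 2 thus had the highest share, with an interval apart from the others.

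**Figure D1:**
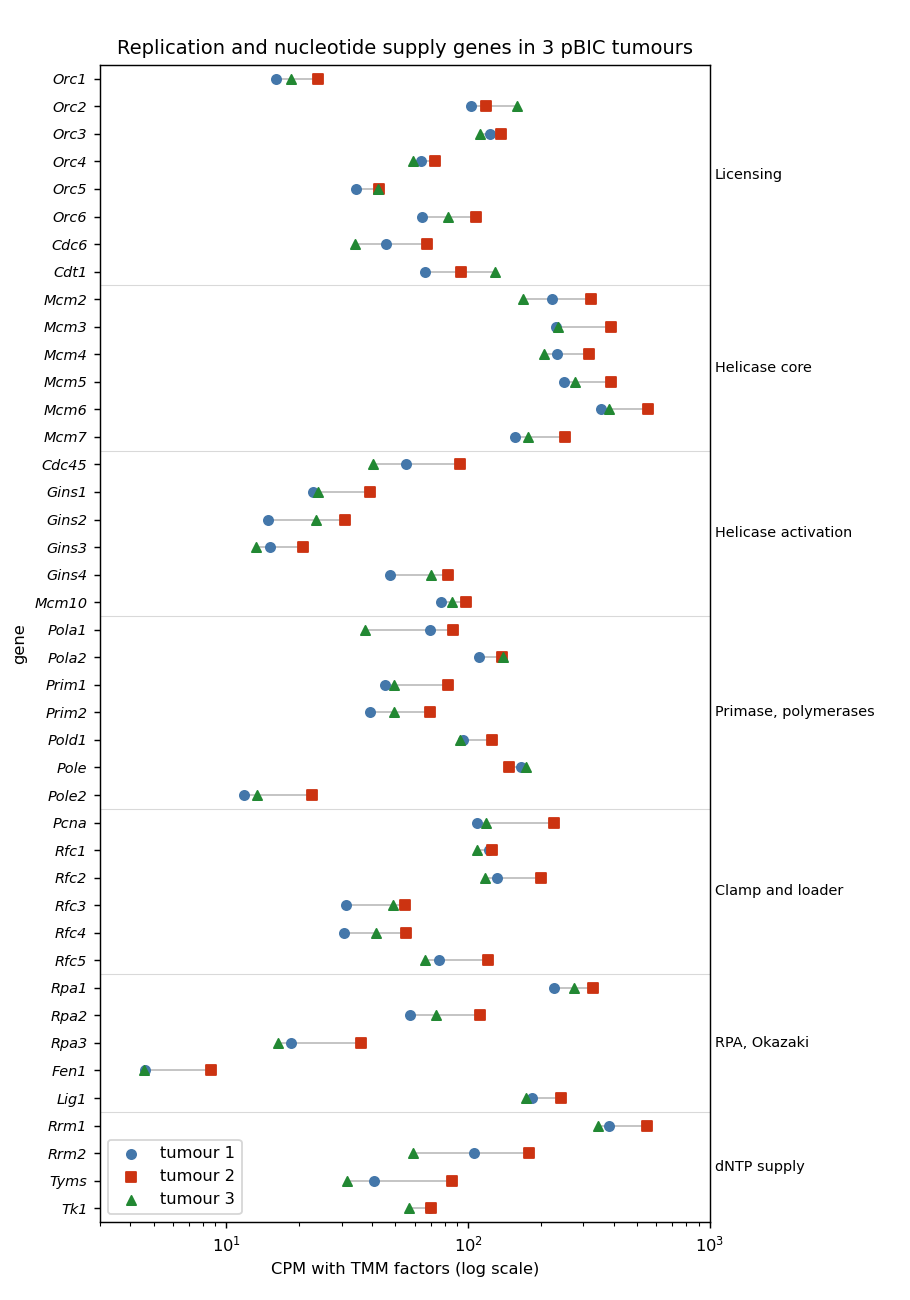
CPM (log axis) of the 42 genes in tumours 1, 2 and 3, grouped by role, with a grey line from the lowest to the highest tumour. The squares of tumour 2 lie furthest to the right for 38 of 42 genes, and Fen1 is the only gene below 10 CPM.

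The upstream sequences of many of these genes carry the letters of known cell cycle motifs. A few are shown, of genes among the highest in level or the widest in range described below. RefSeq windows of 300 bases, from 250 before to 50 after the transcript start (GRCm38.p6), were matched by symbol for 35 of the 42 genes. Gins1, Gins2, Gins4, Mcm4, Pole, Prim2 and Rfc2 had no window in the table used. The printed stretches are the 250 bases before the start, 5′ to 3′, with E2F words and CCAAT boxes in capitals. The E2F words searched on both strands were TTTCCCGC, TTTGGCGC, TTTCGCGC and TTTGCCGC, with overlapping matches joined, and the CCAAT box was searched as CCAAT.
Mcm5 (chr8:75109259-75109508, forward strand): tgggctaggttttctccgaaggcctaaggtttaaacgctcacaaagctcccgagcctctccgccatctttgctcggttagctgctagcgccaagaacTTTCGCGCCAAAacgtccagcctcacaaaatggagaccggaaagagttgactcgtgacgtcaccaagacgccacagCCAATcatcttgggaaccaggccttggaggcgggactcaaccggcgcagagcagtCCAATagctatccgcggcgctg
Mcm6 (chr1:128359706-128359955, reverse strand): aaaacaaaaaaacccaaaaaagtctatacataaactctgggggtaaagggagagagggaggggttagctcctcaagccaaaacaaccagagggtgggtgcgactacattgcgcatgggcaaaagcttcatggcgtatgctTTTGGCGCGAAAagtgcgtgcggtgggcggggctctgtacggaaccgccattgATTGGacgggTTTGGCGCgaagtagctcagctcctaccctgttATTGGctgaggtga
Pola1 (chrX:93632156-93632405, reverse strand): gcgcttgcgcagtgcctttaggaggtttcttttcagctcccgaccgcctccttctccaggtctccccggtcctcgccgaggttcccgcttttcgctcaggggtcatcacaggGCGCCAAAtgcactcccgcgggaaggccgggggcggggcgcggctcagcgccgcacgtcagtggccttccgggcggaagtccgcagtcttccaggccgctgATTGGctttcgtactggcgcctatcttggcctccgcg
Rrm2 (chr12:24708004-24708253, forward strand): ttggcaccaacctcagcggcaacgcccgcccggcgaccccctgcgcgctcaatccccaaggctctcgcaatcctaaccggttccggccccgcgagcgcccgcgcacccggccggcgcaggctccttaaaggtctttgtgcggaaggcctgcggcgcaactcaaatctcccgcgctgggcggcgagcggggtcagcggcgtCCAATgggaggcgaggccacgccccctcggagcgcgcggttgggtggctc
In GENCODE release M21 no annotated exon overlapped the first 3 stretches, and 13 bases of the last lay in an exon of Rrm2 itself. The Mcm6 window had 2 E2F matches, beginning 110 and 47 bases before the start, and 2 CCAAT boxes. The Mcm5 window had 1 E2F match 153 bases before the start and 3 CCAAT boxes, 1 of which lay past the start. Pola1 had 1 of each, and Rrm2 had 1 CCAAT box and no E2F word. The window of Tyms, which is not printed, had neither, although Tyms ranged more widely between tumours than Pola1 (2.73- against 2.32-fold).

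At least 1 E2F word was present in the windows of 14 of 35 replication genes, or 40.0%. The share was 2.60% over all 27025 genes with a window and 4.91% over the 8755 of them that were tested for variability. Of the 35 genes 4 held 2 or more matches: Mcm3, Mcm6, Mcm7 and Rfc3. A CCAAT box was found for 22 of 35 genes (62.9%), against 41.1% of all genes and 43.7% of those tested. The cell cycle homology region, searched as TTTGAA and TTCGAA, was found for 17.1% of the replication genes. It was found for 21.7% of all genes and 16.6% of those tested. The E-box CACGTG was found for 20.0% of the replication genes, 8.09% of all genes and 12.2% of those tested. The median GC content was 58.8% over the 42 windows of the replication genes and 52.7% over all windows, and its part in these shares was not tested. Such matches are letters in a window and do not show that a factor binds there, nor does their absence show that none binds.

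**Figure D2:**
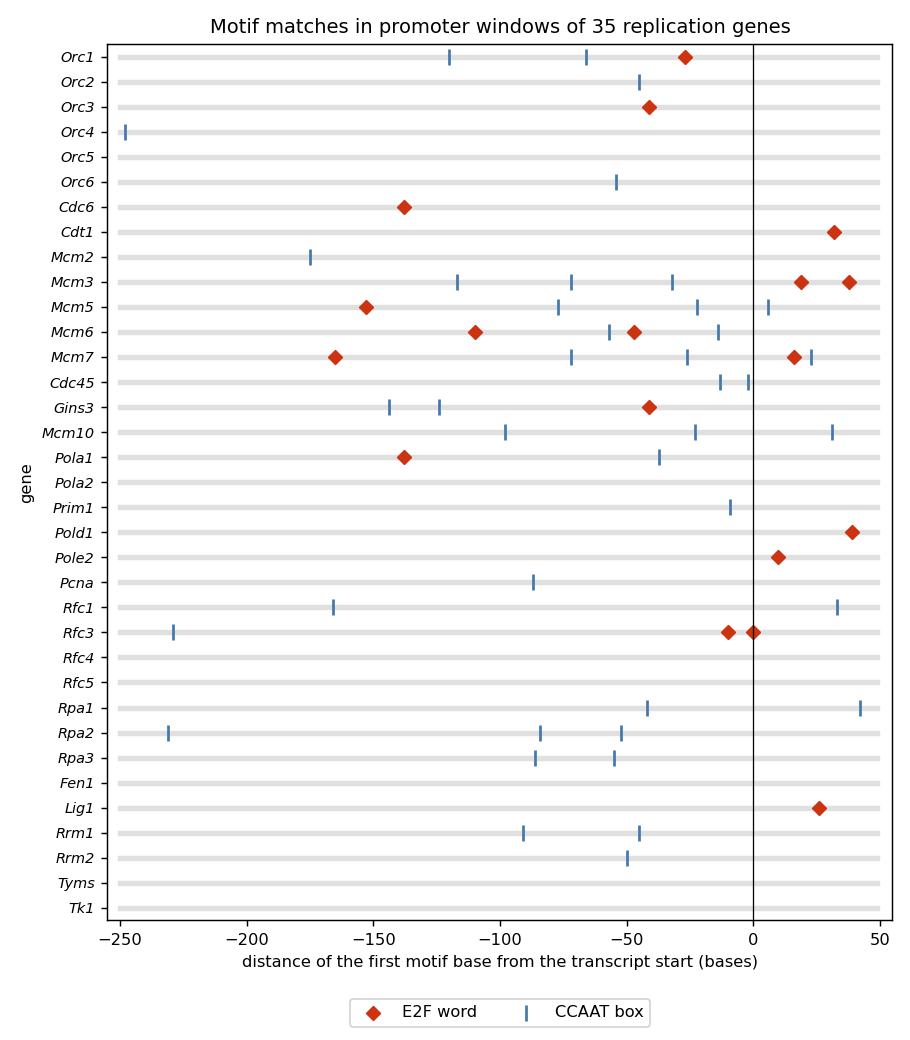
First base of each E2F match (diamonds) and CCAAT box (bars) relative to the transcript start, in bases, for 35 genes in order of role; for genes with several windows the one with most matches is drawn. E2F matches lie from 165 bases before to 39 bases after the start, and 4 genes have 2 of them.

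The genes of the helicase core were the most abundant group of the machinery. Mcm2 to Mcm7, which encode the subunits of the hexameric helicase, had a median of 217 TPM. Mcm6 (ENSMUSG00000026355.11, chromosome 1, 128331590 to 128359664, reverse strand) led with 249, 326 and 248 TPM in tumours 1, 2 and 3, a mean of 275 ± 44.5 TPM (SD, n = 3). Mcm5 and Mcm3 followed at 227 ± 34.9 and 225 ± 51.5 TPM, then Mcm4 at 210 ± 33.7 and Mcm7 at 131 ± 21.5 TPM. Mcm3, Mcm4 and Mcm5 changed places from tumour to tumour and did not differ beyond their spread. Mcm2 was lowest in each tumour, with 105, 127 and 73.1 TPM, and the range from Mcm2 to Mcm6 was 2.38-, 2.58- and 3.39-fold. With the longest transcript in place of the joined exons that range over the 6 subunits was 1.54-, 1.5- and 1.83-fold, and Mcm7 was lowest in tumours 1 and 2. The subunits of a complex that holds 1 copy of each were thus within 4-fold of each other by either length.

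In CPM all 6 core genes were highest in tumour 2. Mcm6 had 356, 555 and 382 CPM in tumours 1, 2 and 3, and tumours 1 and 3 were close to each other. Mcm5 had 250, 390 and 276 CPM and Mcm3 had 230, 389 and 235 CPM, with the same order of tumours. Mcm7 had 157, 251 and 177 CPM. Mcm2 (chromosome 6, 88883474 to 88898780) had 223, 321 and 168 CPM, and Mcm4 had 234, 316 and 207 CPM, so for these 2 genes tumour 3 was lowest. The fold of tumour 2 over tumour 1 was 1.35 to 1.69 across the 6 genes, and that over tumour 3 was 1.41 to 1.91.

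Licensing genes were less abundant than the helicase they load and split into unlike members. The median of Mcm2 to Mcm7 exceeded that of Orc1 to Orc6 by 2.21, 2.61 and 2.28 in log2(TPM + 1) in tumours 1, 2 and 3. The mean was 2.37 ± 0.21 (SD, n = 3), 5.16-fold on that scale, and an exact sign-flip test gave p = 0.25 (two-sided). That is the smallest p that 3 tumours allow, and after Benjamini-Hochberg adjustment over the 10 differences computed it was 0.357. With the longest transcript in place of joined exons the mean was 1.70, or 3.25-fold. Orc6 and Orc2 were the most abundant ORC genes at 102 ± 17.3 and 99.0 ± 22.3 TPM. Their order changed between tumours, and they did not differ beyond their spread. Orc3 had 61.1 ± 5.24 TPM, Orc4 26.3 ± 2.0 TPM and Orc5 19.4 ± 1.34 TPM. Orc1, the large subunit whose level is known to follow the cell cycle, was lowest with 15.1, 18.9 and 16.1 TPM, next to Orc5 with 18.3, 19.0 and 20.9 TPM. Orc1 stood below the median of Orc2 to Orc6 by 2.06, 1.66 and 1.73 in log2(TPM + 1), a mean difference of -1.82 ± 0.22 (exact sign-flip p = 0.25, adjusted 0.357). Orc2 shares 29.8% of its joined exon bases with Nif3l1 on the opposite strand, and the use of strand in counting is not given in the sources used here.

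Between tumours Orc3, Orc4 and Orc5 were among the steadiest of the set. Orc3 had 123, 137 and 112 CPM, Orc4 63.8, 73.1 and 59.4 CPM and Orc5 34.5, 42.7 and 42.5 CPM, in each case within 1.24-fold. Orc6, the smallest subunit, ranged more widely at 64.4, 108 and 82.7 CPM. Orc1 had 16, 23.9 and 18.5 CPM. Orc2 was highest in tumour 3, with 103, 119 and 159 CPM.

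The 2 loading factors went different ways between tumours 2 and 3. Cdc6, the ATPase that joins ORC at the origin, had 45.9, 67.3 and 34.1 CPM, lowest in tumour 3. Cdt1, which delivers the helicase and is destroyed once S phase begins (ENSMUSG00000006585.3, chromosome 8, 122568015 to 122573554, forward strand), had 66.6, 93.4 and 129 CPM. Tumour 3 was therefore 1.94-fold above tumour 1 for Cdt1 and 0.744 times tumour 1 for Cdc6. The exact Poisson 95% intervals of Cdt1, which cover counting error only, were 62.6 to 70.8, 88.5 to 98.5 and 123 to 135 CPM and did not overlap. Neither gene passed the edgeR variability test described below (adjusted p = 0.997 for each). Gmnn encodes geminin, the inhibitor that holds CDT1 in check outside G1 phase, and had 32.2, 70.3 and 46.5 CPM. In log2(TPM + 1) Cdt1 minus Gmnn was -0.05, -0.68 and 0.37, with a mean of -0.12 ± 0.53 and an exact sign-flip p of 0.75 (0.938 after adjustment). Gmnn was thus above Cdt1 in tumour 2 and below it in tumour 3 on this scale. The sign rests on length and on tumour 2: the difference was 1.02, 0.40 and 1.45 without division by length, above 0 in each tumour, and its mean was 0.16 without tumour 2.

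Genes that activate the helicase were expressed at a median of 43.4 TPM, well below its core. The median of Mcm2 to Mcm7 exceeded that of Gins1 to Gins4 by 2.71, 2.68 and 2.61 in log2(TPM + 1). The mean of 2.67 ± 0.05 was the difference with the smallest spread of the 10 (6.35-fold, exact sign-flip p = 0.25, adjusted 0.357). It was 10.2-fold without division by length. The GINS genes themselves were far apart. Gins4 had 147 ± 27.5 TPM, Gins1 56.2 ± 13.1, Gins3 18.1 ± 3.14 and Gins2 16.6 ± 4.45 TPM, although 1 copy of each forms the complex. Gins2 (chromosome 8, 120578633 to 120589304) shares 67.3% of its joined exon bases with Gse1 on the opposite strand, which had 448, 107 and 301 counts. Reads in such shared stretches can be left uncounted, and the part of this in the level of Gins2 was not tested. Cdc45 had 52.9 ± 18.9 TPM and Mcm10, which helps the helicase to start, 33.9 ± 1.10 TPM.

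**Figure D3:**
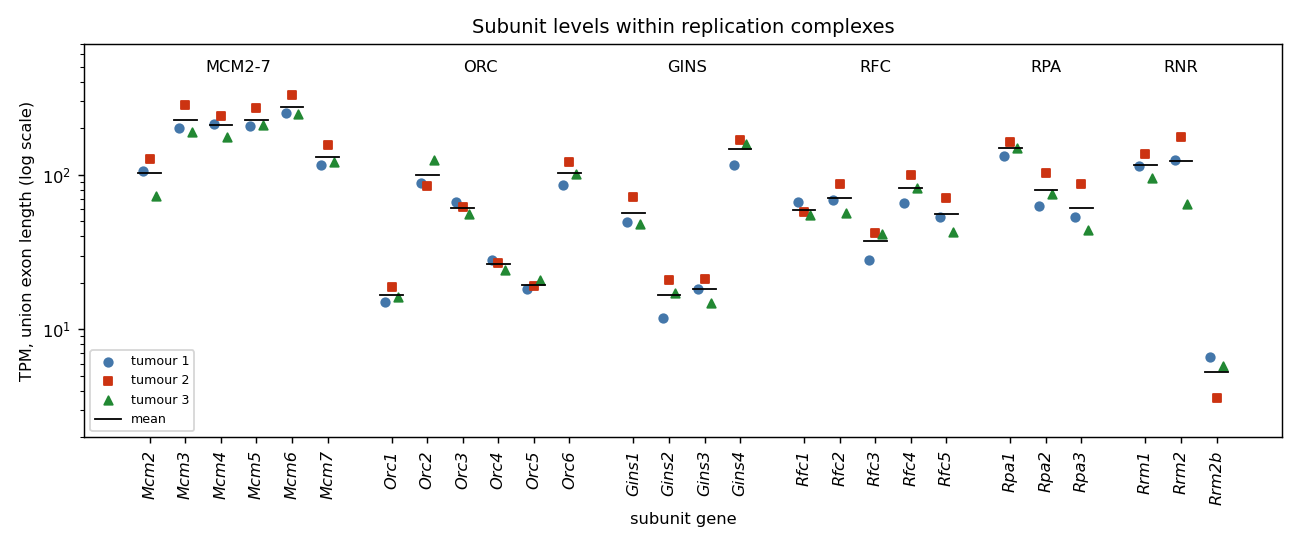
TPM (log axis) of subunit genes of the MCM helicase, ORC, GINS, the clamp loader (RFC), the single-strand binding complex (RPA) and ribonucleotide reductase (RNR) in 3 tumours, with the mean as a bar. Orc1 is the lowest ORC gene, Gins2 and Gins3 are the lowest GINS genes and Rrm2b is the lowest reductase gene in every tumour.

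All 6 activation genes were highest in tumour 2. Cdc45, the subunit that ties the active helicase together (ENSMUSG00000000028.15, chromosome 16, 18780447 to 18811987), had 55.1, 92.7 and 40.3 CPM, 2.30-fold between tumours 2 and 3. Gins2 had 14.9, 30.9 and 23.4 CPM and Gins4 had 47.6, 82.2 and 70.3 CPM, with tumour 1 lowest. Gins1 had 22.9, 39.4 and 24.0 CPM and Gins3 15.2, 20.8 and 13.2 CPM. Mcm10 was steadier at 77.3, 98.4 and 86.0 CPM.

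Primase and polymerase genes had a median of 43.9 TPM. Pold1, the catalytic subunit of lagging-strand polymerase delta, had 64.3 ± 6.64 TPM, and Pole, that of leading-strand polymerase epsilon, had 43.9 ± 6.86 TPM. Pold1 exceeded Pole by 0.39, 0.96 and 0.30 in log2(TPM + 1), a mean of 0.55 ± 0.36 (exact sign-flip p = 0.25, adjusted 0.357). Without division by length the sign was opposite, at -0.64, and the joined exon length of Pole is 11160 nt against 4859 nt for Pold1. Pole2, the second subunit of polymerase epsilon, had 16.3 ± 4.41 TPM. Pola2 and Prim1 had 46.7 ± 3.80 and 45.2 ± 11.7 TPM, while Prim2 and Pola1 had 26.3 ± 5.25 and 21.8 ± 7.82 TPM.

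This group held 2 of the 4 genes that were not highest in tumour 2. Pole had 166, 147 and 173 CPM and was the only 1 of the 42 genes that was lowest in tumour 2, as were 34.5% of all genes tested, within a 1.18-fold range. Pola2, the regulatory subunit of polymerase alpha, had 111, 138 and 140 CPM, with tumours 2 and 3 level. Pola1, its catalytic partner (ENSMUSG00000006678.6, chromosome X, 93304767 to 93632155), had 69.3, 86.5 and 37.3 CPM. Tumour 3 therefore had the lowest Pola1 and the highest Pola2. The primase genes Prim1 (45.2, 82.8 and 49.5 CPM) and Prim2 (39.4, 69.4 and 49.3 CPM) were highest in tumour 2, as was Pole2 (11.8, 22.5 and 13.4 CPM). Pold1 had 95, 126 and 92.8 CPM.

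Pcna, the sliding clamp that holds polymerases on DNA, had the highest mean of the 42 genes outside the helicase core, 186 ± 63.2 TPM, although Gins4 exceeded it in tumour 3 (158 against 150 TPM). In tumours 1, 2 and 3 it had 109, 227 and 119 CPM (ENSMUSG00000027342.14, chromosome 2, 132249162 to 132253314, reverse strand), 2.08-fold between tumours 2 and 1. The Pcna-ps2 pseudogene is also listed, so a few reads could be shared. Genes of the clamp loader were lower, from Rfc3 at 37.0 ± 7.65 TPM to Rfc4 at 82.1 ± 16.9 TPM. Rfc1, the large subunit, had 59.3 ± 6.05 TPM and differed from the median of Rfc2 to Rfc5 by 0.16, -0.45 and 0.15 in log2(TPM + 1), with no common sign (exact sign-flip p = 1). Without division by length it was 1.30, 0.61 and 0.92, above 0 in each tumour, and without tumour 2 the length-scaled mean was 0.16. Rfc1 was also the steadiest of all 42 genes between tumours, with 122, 125 and 109 CPM, a 1.15-fold range. The small subunits were not as steady. Rfc2 had 132, 200 and 117 CPM, Rfc3 31.1, 55 and 49.1, Rfc4 30.6, 55.4 and 41.4, and Rfc5 75.8, 121 and 66.2 CPM, all highest in tumour 2.

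Among the single-strand binding genes Rpa1 was highest and Rpa3 lowest in each tumour, a range of 2.49-, 1.85- and 3.41-fold in TPM. With the longest transcript in place of joined exons that range was 1.64-, 1.22- and 2.25-fold. Rpa1, which encodes the large DNA-binding subunit, had 148 ± 14.6 TPM, Rpa2 80.1 ± 20.3 TPM and Rpa3 61.3 ± 22.9 TPM. In CPM, Rpa1 had 226, 329 and 274, Rpa2 57.6, 112 and 73.9, and Rpa3 18.5, 36.1 and 16.4, each highest in tumour 2. Lig1, the ligase that seals Okazaki fragments, had 184, 243 and 173 CPM and 140 ± 16.7 TPM. Its partner Fen1, the flap nuclease that trims those fragments, stood apart with 71, 125 and 70 counts, or 4.58, 8.67 and 4.56 CPM, and 7.24 ± 2.24 TPM. Fen1 (ENSMUSG00000024742.15, chromosome 19, 10199132 to 10204169, reverse strand) shares 78.8% of its joined exon bases with the antisense gene Gm10143. That gene itself had 25, 16 and 11 counts. How reads in shared stretches were counted is not given in the sources used here, and its part in the low value of Fen1 was not tested.

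Of the 4 genes of nucleotide supply, Rrm2 and Tyms had the widest ranges between tumours among all 42 genes, while Rrm1 (1.58-fold) and Tk1 (1.23-fold) lay below the median range of 1.70-fold. Rrm1 and Rrm2 encode the large and the small subunit of ribonucleotide reductase, which makes deoxynucleotides. Rrm2 (ENSMUSG00000020649.11, chromosome 12, 24708241 to 24714146, forward strand) had 106, 178 and 59.4 CPM in tumours 1, 2 and 3. The range was 2.99-fold, the widest of the 42 genes, with an unadjusted p of 0.0254 and an adjusted p of 0.651 in the edgeR variability test. Tyms, which makes thymidylate and is the target of fluoropyrimidines, had 40.6, 85.6 and 31.4 CPM, a 2.73-fold range (unadjusted p = 0.0370, adjusted p = 0.746, edgeR). Rrm1 had 383, 548 and 346 CPM. Tk1, the S phase thymidine kinase of the salvage route, was steady at 69.4, 70.2 and 57.1 CPM. Tumour 3 was lowest and tumour 2 highest for all 4 genes.

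The means of the 2 reductase subunits were close, at 115 ± 20.7 TPM for Rrm1 and 122 ± 55.5 TPM for Rrm2, but single tumours were not level. Rrm1 had 114, 137 and 95.3 TPM and Rrm2 125, 176 and 64.9 TPM. Rrm1 minus Rrm2 was -0.13, -0.36 and 0.55 in log2(TPM + 1), with tumour 3 alone above 0 (mean 0.02 ± 0.47, exact sign-flip p = 1). With the longest transcript it was 0.53, 0.30 and 1.21, and without division by length 1.85, 1.62 and 2.52, so Rrm1 was then above Rrm2 in each tumour (exact sign-flip p = 0.25 for each). Rrm2b, the alternative small subunit that p53 is known to induce, had 5.33 ± 1.55 TPM. Rrm2 exceeded it by 4.05, 5.26 and 3.28 in log2(TPM + 1), a mean of 4.2 ± 1.0 or 18.4-fold, with the same sign in 3 of 3 (exact sign-flip p = 0.25, adjusted 0.357). It was 6.28-fold without division by length. The p53 gene is floxed in all of these tumours, and no tumour with intact p53 was analysed here. Tk1 exceeded Tk2, the mitochondrial thymidine kinase, by 0.92, 1.17 and 0.74 (mean 0.94 ± 0.22, exact sign-flip p = 0.25, adjusted 0.357). Tk1 had 38.0 ± 5.29 TPM and Tyms 25.3 ± 11.9 TPM.

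The comparison of tumours was tested across all genes with edgeR, which compared the spread of each gene with that of genes at a like level. All 42 replication genes passed the filter on low counts, and 0 of 42 had an adjusted p under 0.05, while 0.139% of the 11478 genes tested did. At an unadjusted p under 0.05 there were 2 of 42, Rrm2 and Tyms, against 6.27% of all genes. DESeq2 marked 0 of the 42 as dispersion outliers, against 0.357% of all genes. The test has a limited reach for differences of this size. In simulated counts for these 11478 genes, it recovered 45.2% of genes raised 4-fold in 1 tumour and 92.5% of those raised 8-fold, whereas the widest range here was 2.99-fold. The raised genes were drawn from those with higher counts, and each gene had the dispersion of its level with no spread of its own. These shares may therefore be too high for all genes tested. The median range was 1.70-fold for the 42 genes and 1.64-fold for all genes tested. Of the 42 genes 30 ranged over more than 1.5-fold and 7 over more than 2-fold, against 61.8% and 28.7% of all genes.

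Most replication genes had 1 leading tumour. Tumour 2 was highest for 38 of 42 genes, and 35.8% of all genes tested were highest there. The 4 exceptions, Orc2, Cdt1, Pola2 and Pole, had their peak in tumour 3, against 31.8% of all genes. Tumour 1 was highest for 0 of the 42 in CPM with TMM scaling, against 32.4%. That 0 rests on the scaling: in TPM Orc3, Orc4, Pole, Rfc1 and Tk1 were highest in tumour 1. The lowest value lay in tumour 1 for 22 genes and in tumour 3 for 19, against 32.5% and 33.0% of all genes. For 34 genes the exact Poisson 95% interval of tumour 2 lay above those of both other tumours, against 20.0% of all genes. The median difference of the 42 genes was 0.62 (log2 CPM) for tumour 2 minus tumour 1 and 0.50 for tumour 2 minus tumour 3, against 0.00 and 0.02 over all genes. It was 0.06 for tumour 3 minus tumour 1, against 0.00, and 23 of 42 genes were higher in tumour 3, against 50.1%. Of the 42 genes 41 were higher in tumour 2 than in tumour 1 and 38 higher than in tumour 3, against 50% and 51.4% of all genes. Each tumour is 1 library, so these orders have no replicate check, and the genes are not independent replicates. Scaled to the library total without TMM, 35 genes were highest in tumour 2.

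**Figure D4:**
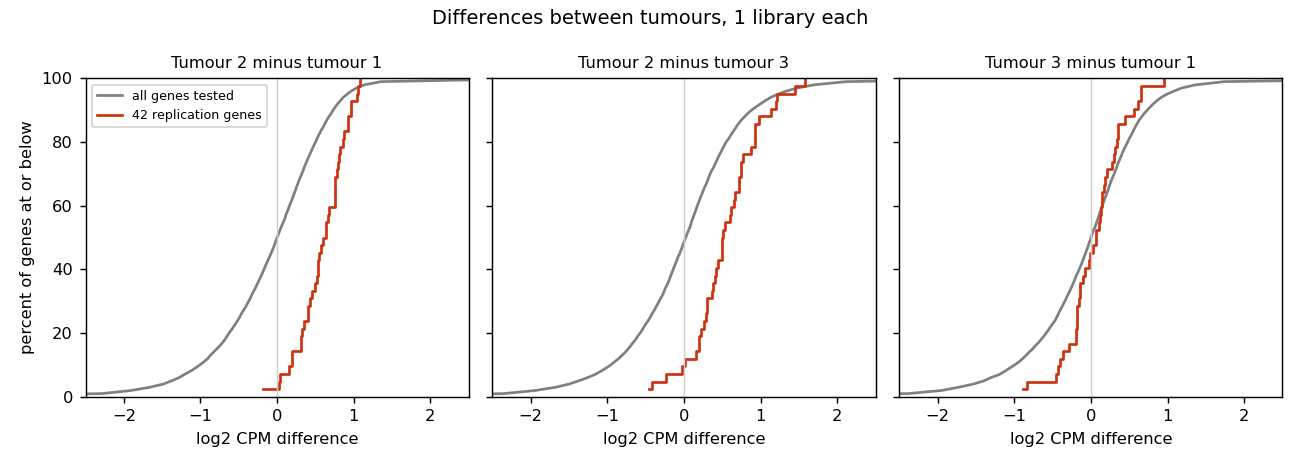
Cumulative share of genes (percent) against the log2 CPM difference for 3 pairs of tumours, for the 42 replication genes (red) and all 11478 genes tested (grey). The red curve lies to the right of the grey one for tumour 2 against tumour 1 (median 0.62) and against tumour 3 (median 0.50), and the curves cross for tumour 3 against tumour 1 (median 0.06).

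Transcript length moved with these differences. Over all genes tested with a length, those with joined exons of up to 4182 nt, the median of the replication genes, had a median difference of 0.27 (tumour 2 minus tumour 1, log2 CPM), and longer genes had -0.23. Among the replication genes the shorter 21 had 0.78 and the longer 21 had 0.41. Spearman's rho between length and this difference was -0.61 across the 42 genes and -0.43 across all genes, given as a description. For tumour 2 minus tumour 3 the shorter genes had 0.61 and the longer 0.49. With a trend on length and GC content removed from each library, the medians over the 42 genes were 0.69 and 0.51, and 38 of 42 genes were highest in tumour 2. Of the 26 replication genes whose exons overlap no other listed gene, 24 were highest in tumour 2.

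Markers of other cells also differed between the libraries. Lyz2, a macrophage and granulocyte gene, had 7.55, 56.0 and 4.04 CPM (edgeR adjusted p = 0.0372), and the plasma cell gene Jchain had 35.5, 413 and 232 CPM (adjusted p = 0.0363). The erythroid gene Hbb-bs was highest in tumour 3 at 61.5 CPM, against 2.58 and 8.67 CPM (adjusted p = 0.0234). These 3 passed the test. The other macrophage and plasma cell markers were mixed, and the values printed for some were picked after being seen. Like Lyz2, the macrophage genes C1qa (0.581, 7.07 and 1.24 CPM), C1qb (1.03, 7.14 and 0.586 CPM), Csf1r and Mertk were highest in tumour 2. Adgre1 (3.23, 0.624 and 0.847 CPM) and Fcgr1 were highest in tumour 1 and Cd68 (139, 123 and 142 CPM) in tumour 3. Like Jchain, Xbp1 (93.4, 157 and 60.9 CPM), Prdm1 (6.39, 20.0 and 9.32 CPM) and Sdc1 were highest in tumour 2. Irf4, which plasma cells and activated B cells express, was highest in tumour 1 (277, 107 and 189 CPM) and Tnfrsf17 in tumour 3. Of 11 pan-B cell markers 9 were highest in tumour 1. Summed over the 11 pan-B cell markers the levels in tumours 1, 2 and 3 were 5909, 3890 and 3611 CPM. The sums were 155, 199 and 151 CPM for 8 macrophage markers, 78, 60 and 107 CPM for 9 T cell markers and 55.7, 20.7 and 3.19 CPM for 7 neutrophil markers. They were 228, 248 and 283 CPM for 7 erythroid markers and 413, 697 and 493 CPM for 6 plasma cell markers. In each library Cd68 alone made up most of the macrophage sum, and Tfrc (221, 226 and 163 CPM) most of the erythroid sum. These 2 sums therefore say little about the other markers of their lists. No marker in these lists was at 0 counts in any library. The part of these markers in the differences of the replication genes was not tested, and fewer cycling cells and less RNA per cycling cell cannot be told apart in bulk libraries.

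Other genes of replication, chosen by function, are given beside them. Of 14 further licensing and firing genes 10 were highest in tumour 2, and 0 of 14 passed the edgeR test, with 0 at an unadjusted p under 0.05. Ccna2, the S phase cyclin, led this list at 142 ± 19.3 TPM, followed by Mcmbp, an MCM-binding protein gene, at 108 ± 4.60 TPM and Ccne1, the cyclin of S phase entry, at 104 ± 21.9 TPM. Ticrr and Recql4, which take part in origin firing, were lowest at 16.6 ± 4.72 and 18.5 ± 2.71 TPM. Of 24 other polymerase subunits and fork proteins 15 were highest in tumour 2 (0 of 24 called, 0 at an unadjusted p under 0.05). Pold2, the second subunit of polymerase delta, had 268 ± 60.6 TPM, above its catalytic partner Pold1, and Tipin, a fork protection gene, 177 ± 42.9 TPM. Pole3, a small subunit of polymerase epsilon, had 149 ± 34.0 TPM, while Mcm9 and Dscc1 were lowest at 7.25 ± 2.05 and 5.45 ± 1.82 TPM.

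Of 31 further genes of nucleotide synthesis 25 were highest in tumour 2, with median differences of 0.53 and 0.50 (log2 CPM) against tumours 1 and 3, and 0 of 31 passed the edgeR test, with 2 at an unadjusted p under 0.05. DESeq2 marked 0 genes of the 5 lists described here and below as dispersion outliers. Shmt2, the mitochondrial enzyme that feeds carbon units into purine and thymidylate synthesis, had 328, 742 and 323 CPM (edgeR unadjusted p = 0.0345, adjusted p = 0.735). Paics and Gart, enzymes of purine synthesis, had 395 ± 83.2 and 185 ± 3.29 TPM. Rrm2b and Ctps2 were the lowest of the list at 5.33 ± 1.55 and 9.79 ± 3.19 TPM.

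Regulators of S phase entry were spread over the tumours. Of 23 genes of E2F, RB and G1 control 8 peaked in tumour 2 and 10 in tumour 1, with median differences of 0.08 and 0.18 against tumours 1 and 3 (0 of 23 called, 2 at an unadjusted p under 0.05). The most abundant was Cdkn2a, the locus of the cell cycle inhibitors p16INK4a and p19ARF, at 597 ± 129 TPM. Cdk4, the G1 kinase that p16INK4a inhibits, had 523 ± 160 TPM, and the E2F family gene E2f4 had 425 ± 55.3 TPM. Cdkn1a, the inhibitor gene that p53 is best known to induce, was lowest at 1.42 ± 1.23 TPM, with 0.710, 3.67 and 0.912 CPM, and E2f7 had 2.26 ± 0.466 TPM. Counts per gene do not separate the 2 products of Cdkn2a.

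Of 20 G2 and M phase genes 14 had their peak in tumour 2, 5 in the first and 1 in tumour 3, while 13 had their minimum in tumour 3, against 33.0% of all genes. The median difference was 0.20 for tumour 2 minus tumour 1 and 0.62 for tumour 2 minus tumour 3 (0 of 20 called, 5 at an unadjusted p under 0.05, edgeR). Of those 5, Ube2c, which marks mitotic exit, was highest in tumour 2 with 133, 248 and 97.4 CPM. The others were highest in tumour 1. Top2a had 649, 629 and 270 CPM and the long kinesin gene Cenpe 91.5, 61.0 and 25.9 CPM. Cenpf had 73.9, 43.3 and 22.3 CPM and Mki67 833, 451 and 306 CPM. Length moved with the difference of tumour 2 from tumour 1 in this list too. The 8 genes with joined exons of up to 4182 nt had a median of 0.55 and the 12 longer genes 0.06. Spearman's rho was -0.70 across the list, given as a description. For tumour 2 minus tumour 3 the medians were 0.65 and 0.61. The part of length in the tumour 1 peaks was not tested. Summed over the 20 genes the levels in tumours 1, 2 and 3 were 3270, 3293 and 2090 CPM. Cdc20, an activator of the anaphase-promoting complex, had 193 ± 31.2 TPM and Cenpf 9.25 ± 5.81 TPM. The replication median lay below the mitotic median by 0.56, 0.37 and 0.26 in log2(TPM + 1) in tumours 1, 2 and 3, a mean difference of -0.40 ± 0.15 (exact sign-flip p = 0.25, adjusted 0.357). With the longest transcript the differences were -0.29, -0.11 and 0.01, with no common sign (mean -0.13, exact sign-flip p = 0.5).

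**Figure D5:**
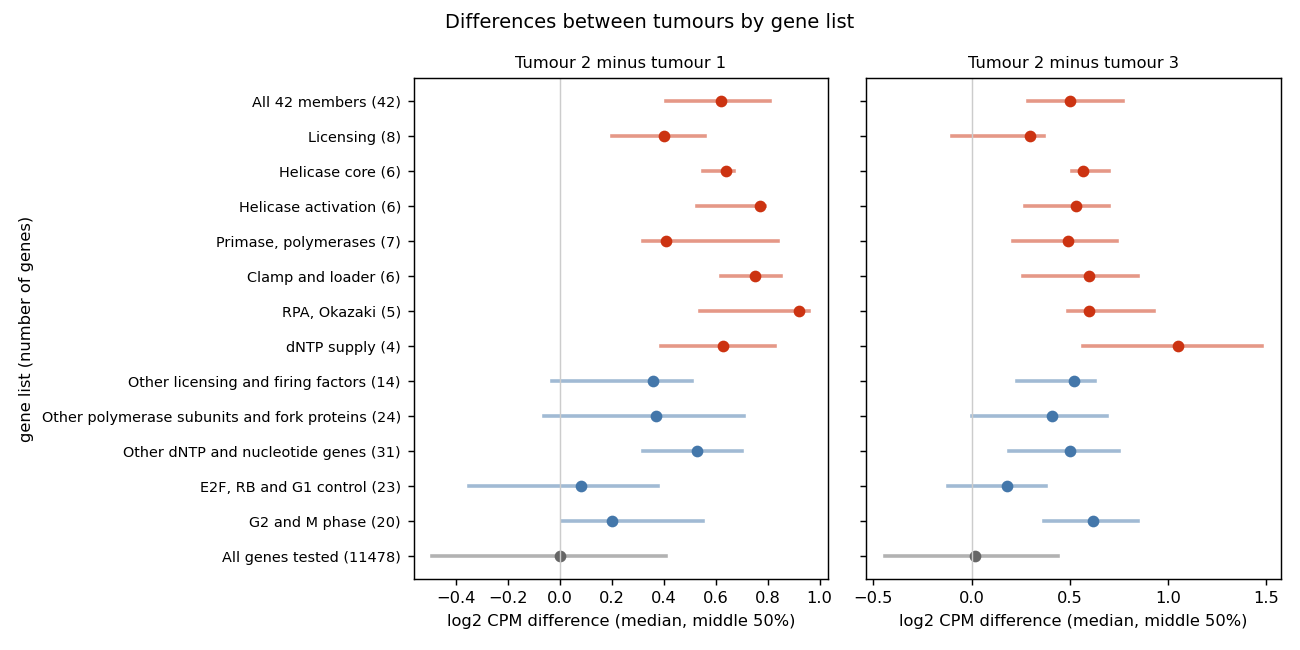
Median (point) and middle 50% (bar) of the log2 CPM differences of tumour 2 from tumours 1 and 3, for replication genes by role (red), other lists (blue) and all genes tested (grey), with the number of genes in brackets. The 7 role groups have medians from 0.40 to 0.92 against tumour 1 and from 0.30 to 1.05 against tumour 3, and E2F, RB and G1 control lies nearest to all genes.

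By role, the difference of tumour 2 from tumour 1 had its highest median in the single-strand binding and Okazaki genes (0.92) and its lowest in the licensing genes (0.40). The difference from tumour 3 was highest for nucleotide supply (1.05) and lowest for licensing (0.30). These groups hold 4 to 8 genes each and were not tested against each other. Genes with an E2F word in the window had median differences of 0.57 and 0.50 from tumours 1 and 3 (14 genes), and those without had 0.67 and 0.60 (21 genes). The median difference was thus not larger among the genes with an E2F word.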

How the data were processed

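RNA of sorted B220+GFP+ cells was sequenced as polyadenylated mRNA in single reads of 50 nt. The deposited values are raw counts per gene, 1 library per file, without normalization. Per the submitters' processing notes the tools were FastQC, STAR 2.5.2b and featureCounts 1.6.0 and the build was mm10. For settings, strand and annotation release the sources used here give nothing. Coordinates (1-based), joined exon lengths and longest transcripts came from GENCODE M21 (GRCm38, the assembly of mm10), which matched 37536 of 37646 identifiers. TMM scaling (edgeR 4.0.16 in R 4.3.3) gave factors of 1.023, 0.9601 and 1.018.

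filterByExpr kept 11478 genes for an edgeR quasi-likelihood model with an intercept alone. The residual deviance over the prior variance was tested one-sided against F (2 and 15.8 degrees of freedom), and p-values were adjusted after Benjamini-Hochberg, with a threshold of 0.05. The test was tried on simulated data (3 runs per fold). DESeq2 1.42.0 served as an alternative. Differences between genes within a tumour used log2(TPM + 1) and exact sign-flip tests. Tumours are numbered in accession order. The members and lists were chosen with earlier results of these data known. All members are named. Of other lists, at most the 3 highest and 2 lowest by TPM are named, with those in the fixed differences and those that passed the test. The G2 and M phase genes at an unadjusted p under 0.05 and all macrophage and plasma cell markers are named too.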

Additional observations from a re-analysis of the deposited data

How the results depend on the processing

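No paired analysis was possible because all 3 libraries form 1 group. The count of genes that varied between tumours, 16 in the edgeR fit, was 164 without a filter on low counts, 0 with a mean count of at least 10 (781 at an unadjusted p under 0.05) and 41 as DESeq2 dispersion outliers. Leaving out 1 tumour gave 0 to 11, with 0 without tumour 1 and 0 without tumour 2. The count among the replication genes was 0 under every alternative run. At an unadjusted p under 0.05 there were 4 members without tumour 1 (smallest p 0.00752, Rrm2), 0 without tumour 2 (0.0814, Cdt1) and 0 without tumour 3 (0.0679, Tyms).

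Without division by length, Cdt1 minus Gmnn was 0.96, Rfc1 minus the median of Rfc2 to Rfc5 was 0.94 and Pold1 minus Pole was -0.64, all of opposite sign to the values above because length enters them directly. Leaving out 1 tumour gave -0.37 to 0.16 for Cdt1 minus Gmnn and -0.15 to 0.16 for Rfc1, positive without tumour 2 in both, and -0.25 to 0.21 for Rrm1 minus Rrm2, negative without tumour 3. The means of the other 7 differences kept their sign under the pseudocount of 0.1, the longest transcript and each tumour left out. The median difference of tumour 3 from tumour 1 was 0.20 with length and GC trend removed, and the cause was not tested. Mean CPM of single members was 0.987 to 1.0 times its value with the library total, and 0.961 to 1.18, 0.686 to 1.05 and 0.831 to 1.25 times without tumours 1, 2 and 3. Members highest in tumour 2, a count added after seeing the data, numbered 35 to 38 under the other scalings of CPM. The 70 to 8000 counts per member and tumour keep counting error small except for Fen1.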
